A study of Rattus norvegicus with 21 samples.

Results

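The rat genes Per1, Per2, Nr1d1, Dbp, Arntl (also called Bmal1) and Clock are the core and output genes of the circadian clock that were chosen here by their Ensembl identifiers, ENSRNOG00000007387, ENSRNOG00000020254, ENSRNOG00000009329, ENSRNOG00000021027, ENSRNOG00000014448 and ENSRNOG00000002175, in that order. All 6 were present among the 32754 genes of the count table, and all 6 were among the 15225 genes that passed the filter on low counts. The pairing of identifier and symbol was not checked against a gene map, because the rat gene table used here holds no Ensembl identifiers. RNA was sequenced from the full-thickness urinary bladder of wild-type male Sprague Dawley rats, an outbred strain. The cord of rats with spinal cord injury (SCI) was cut through at thoracic level 8 under isoflurane when they were 6 to 7 weeks old, which leaves the bladder without control from the brain. SCI rats were studied 2, 8 and 16 weeks later, and noninjured control rats at 0, 2, 8 and 16 weeks, with 3 libraries in each of the 7 groups and 21 libraries in all. The paper calls the controls age-matched, so their weeks are read here as counted from the same age of 6 to 7 weeks. Controls of different weeks thus differ in age. The sources give no sham operation for the controls. Each library is labelled as a separate rat sample, all libraries carry the same batch label, and total counts per library ran from 8087726 to 15472537 with a median of 9584812. The clock genes had 149 to 3166 counts in each library. The time of day and the lighting schedule at collection are not given in the sources used here.

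The circadian clock is a feedback loop of transcription that runs in nearly every cell with a period of about a day. The proteins BMAL1 (from Arntl) and CLOCK pair and bind E-box sequences to switch on the period genes Per1 and Per2, the nuclear receptor gene Nr1d1 and the output gene Dbp. PER proteins then block that pair, and NR1D1 (also known as REV-ERBα) represses Arntl through ROR response elements. In peripheral organs, the bladder among them, Arntl therefore peaks at about the opposite time of day to Nr1d1, Dbp and Per2, whereas Clock RNA varies little. Per1 is also induced directly by glucocorticoids and by cyclic AMP. The question asked of the data was how these genes stood in each of the 7 groups, and whether libraries of a group stood at different points of that cycle.

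The sequence elements that link these genes are shown because they are the kinds of element through which BMAL1 with CLOCK, DBP and NR1D1 act on their target genes. All 6 genes had an entry among the RefSeq promoters of assembly GRCr8, which cover 250 bases before to 50 bases after an annotated start, and Arntl was listed as Bmal1. Since a gene can have several starts, 3 of the windows (that of Per1 and the second of Nr1d1 and of Clock) lay wholly inside the annotated span of the gene. Those of Per2 and Arntl had 174 and 144 bases before that span, and the remaining windows 247 or 250. Nr1d1 and Clock each had a second start, so that 8 windows of 300 bases were searched on both strands for the E-box CACGTG, its variant CACGTT, the D-box TTATGTAA or TTACGTAA that DBP binds, the ROR response elements TAGGTCA and GGGTCA, and the cyclic AMP response element TGACGTCA. None of these letters overlapped in the 5 matches, which fell in 4 of the 8 windows. Each match is printed 5′ to 3′ on the gene's strand in a stretch of 30 bases that includes the element, which is in capitals.
Per2 E-box variant: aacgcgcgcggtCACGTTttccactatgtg
Per2 D-box: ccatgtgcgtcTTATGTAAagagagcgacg
Nr1d1 first start, E-box variant on the opposite strand: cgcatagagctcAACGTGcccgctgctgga
Nr1d1 second start, E-box: tgtcagctcccaCACGTGtctggggatcct
Arntl ROR response element: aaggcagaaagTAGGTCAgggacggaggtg
The Per2 stretches lie at chr9:99497038-99497067 and chr9:99497167-99497196 on the minus strand, with the elements at positions -62 and -192 from the start. The Nr1d1 stretches lie at chr10:84231969-84231998 and chr10:84229628-84229657 on the minus strand, with the elements at -174 and -191 from the first and second start. The Arntl stretch lies at chr1:176766301-176766330 on the plus strand, with the element at -16. Among all 33469 promoter windows of that length, 6.42% held CACGTG, 4.83% CACGTT, 1.01% either form of the D-box, 2.63% TAGGTCA, 13.8% GGGTCA and 1.83% TGACGTCA. Of the 5 matches, 3 lay inside the annotated span of their own gene, namely the Per2 E-box variant, the E-box at the second Nr1d1 start and the Arntl element. A match describes the letters and is not evidence of a bound site. The windows of Per1, Dbp and Clock held none of these letter strings, which says nothing of elements elsewhere in those genes. The counts were made on another assembly, Rnor_6.0, so these positions serve only to place the sequences.

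The levels of the clock genes are given as TMM-scaled CPM, the usual depth-normalized counts, for which edgeR's trimmed mean of M values corrected each library size. CPM is not divided by transcript length, so values are compared only within a gene. In bulk tissue, fewer cells that express a gene and less of its RNA per cell cannot be told apart.

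Arntl, the activator of the loop, whose window held the letters TAGGTCA, had the lowest mean CPM in the 3 SCI groups. In controls, Arntl was 33.1, 55.8 and 39.8 CPM in replicates 1, 2 and 3 at 0 weeks, 28.5, 48.2 and 44.7 at 2 weeks, 46.1, 63.8 and 28.2 at 8 weeks, and 29.5, 49.9 and 56.9 at 16 weeks. In SCI rats, it was 24.9, 32.5 and 50.4 CPM at 2 weeks, 12.8, 36.7 and 39.5 at 8 weeks, and 44.0, 27.7 and 44.5 at 16 weeks. SCI and control libraries overlapped at every week, and the 8-week SCI library of replicate 1 was the lowest of all 21. The lowest group mean was 29.7 ± 14.7 CPM (SD, n = 3) in 8-week SCI rats and the highest 46.1 ± 17.8 CPM in 8-week controls, and every neighbour in that order overlapped the next.

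Dbp, a transcription factor gene driven by BMAL1 and CLOCK that carries the rhythm to output genes, varied in the other direction within most groups. In controls, Dbp was 50.01, 63.1 and 42.0 CPM in replicates 1, 2 and 3 at 0 weeks, 89.9, 40.9 and 42.1 at 2 weeks, 35.8, 37.4 and 115 at 8 weeks, and 108, 74.7 and 54.5 at 16 weeks. After SCI, Dbp was 88.2, 84.6 and 27.1 CPM at 2 weeks, 116, 82.0 and 61.8 at 8 weeks, and 63.5, 126 and 49.9 at 16 weeks. In 6 of the 7 groups, the library with the most Dbp was the one with the least Arntl. The 0-week controls had the lowest group mean, 51.7 ± 10.6 CPM (SD, n = 3), and the 8-week SCI rats the highest, 86.6 ± 27.4, with overlap between all neighbours.

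Nr1d1 encodes the repressor of Arntl and showed the widest range of the 6 genes. In controls, Nr1d1 was 65.3, 154 and 70.9 CPM in replicates 1, 2 and 3 at 0 weeks, 176, 75.9 and 93.6 at 2 weeks, 61.2, 122 and 157 at 8 weeks, and 209.9, 187 and 119 at 16 weeks. The SCI values of Nr1d1 were 91.7, 90.5 and 30.01 CPM at 2 weeks, 119, 152 and 106 at 8 weeks, and 126, 221 and 74.7 at 16 weeks. The highest library held 7.36 times the CPM of the lowest, and both were SCI libraries. The 2-week SCI group had the lowest mean, 70.7 ± 35.3 CPM (SD, n = 3), and the 16-week controls the highest, 172 ± 47.2, although neighbours in the order overlapped. Nr1d1 shares its 3′ end with Thra, a thyroid hormone receptor gene on the opposite strand. Because the sources do not state whether the counting used strand, reads from that overlap could belong to either gene.

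Per2, a repressor of the loop whose window held the letters of the E-box variant and the D-box, varied less. In controls, Per2 was 81.9, 78.1 and 80.9 CPM in replicates 1, 2 and 3 at 0 weeks, 73.9, 50.6 and 65.3 at 2 weeks, 101, 79.4 and 112 at 8 weeks, and 87.1, 70.6 and 53.5 at 16 weeks. After SCI, Per2 was 91.7, 91.3 and 51.8 CPM at 2 weeks, 117, 109 and 60.4 at 8 weeks, and 74.1, 104 and 63.5 at 16 weeks. Group means lay between 63.3 ± 11.8 CPM (SD, n = 3) in 2-week controls and 97.5 ± 16.5 in 8-week controls, with overlap between all neighbours. The 3 libraries of the 0-week controls were the closest for Per2, at 1.05 times from lowest to highest.

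Per1, the period gene that also answers to glucocorticoids and cyclic AMP, did not follow Per2 between libraries. In controls, Per1 was 119, 152 and 132 CPM in replicates 1, 2 and 3 at 0 weeks, 48.1, 123 and 155 at 2 weeks, 243, 124 and 114 at 8 weeks, and 155, 115 and 116 at 16 weeks. The SCI values of Per1 were 80.6, 169.7 and 164 CPM at 2 weeks, 131, 151 and 150.2 at 8 weeks, and 102, 206 and 129 at 16 weeks. The extremes were both control libraries, replicate 1 at 2 weeks and replicate 1 at 8 weeks.

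Clock, the partner of BMAL1, had the most even levels. In controls, Clock was 119, 185 and 155 CPM in replicates 1, 2 and 3 at 0 weeks, 180.1, 167 and 184 at 2 weeks, 189, 204 and 173 at 8 weeks, and 178, 175 and 163 at 16 weeks. After SCI, Clock was 141, 159 and 175 CPM at 2 weeks, 155, 168 and 170.1 at 8 weeks, and 189.7, 154 and 184 at 16 weeks. At 8 weeks all SCI libraries lay below all control libraries, by 170.1 against 173 CPM at the nearest, and at the other weeks the groups overlapped. With library size only, the 8-week groups of Clock overlapped, at 167 to 185 CPM in SCI rats and 162 to 188 in controls. Only the use of that scaling for the overlap of levels was added after seeing the data.

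**Figure D1:**
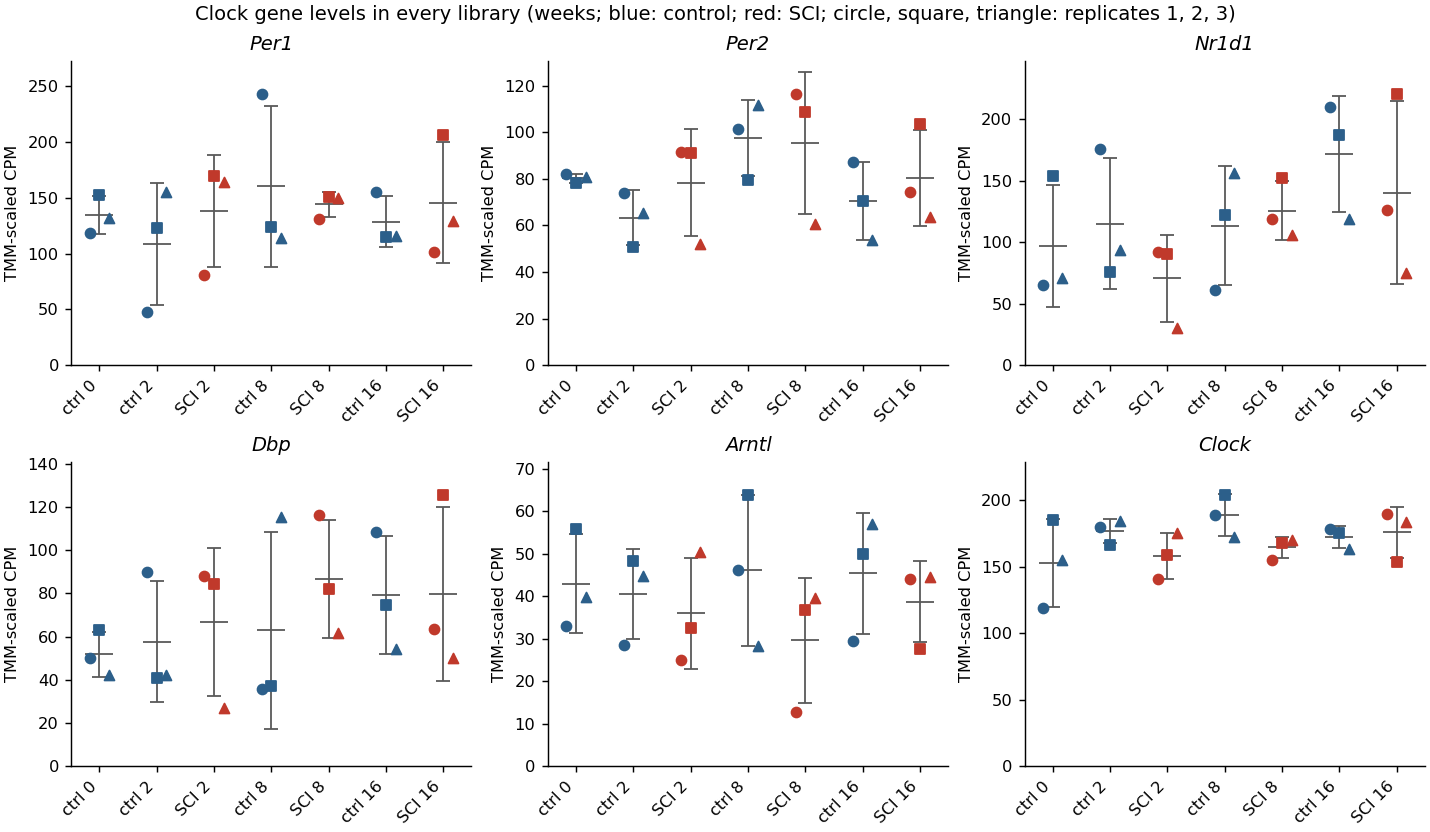
TMM-scaled CPM (y axis) of the 6 clock genes in the 7 groups (x axis, weeks), with 1 point per library, blue for controls and red for SCI. Horizontal marks and bars are the mean ± SD of 3 libraries. Points of SCI and control groups of the same week overlap for every gene and week except Clock at 8 weeks.

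The first comparison asked whether SCI changed the clock genes against controls of the same week. None of the 6 was called at an adjusted p under 0.05 at 2, 8 or 16 weeks by edgeR's quasi-likelihood test with Benjamini-Hochberg adjustment, where 0%, 8.41% and 5.62% of all tested genes were called. For the mean over the 3 weeks, 0 of 6 were called against a background of 22.7%. An unadjusted p under 0.05 was found for 0 of 6 in each of these 4 comparisons, beside 6.67%, 28% and 26.6% of all genes at the 3 weeks and 37.5% for their mean. DESeq2 called 0 of 6 in each, beside 0.42%, 12.9%, 11% and 25.7% of all genes. The likelihood ratio test of edgeR called 0 of 6 in each, beside 0.453%, 12.2%, 10.2% and 24.9%. The median log2 fold change of the 6 genes was 0.02, -0.09 and 0.02 at 2, 8 and 16 weeks, beside 0.00, 0.00 and -0.02 over all tested genes.

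For the activators, most fold changes were below 0, and none passed the test. Arntl had log2 fold changes, SCI over control, of -0.17 ± 0.39 (SE), -0.64 ± 0.39 and -0.23 ± 0.39 at 2, 8 and 16 weeks, and of -0.35 ± 0.22 for the mean over weeks, with edgeR adjusted p = 0.274. Leaving out single libraries moved the 2-week value to between -0.50 and 0.03, the latter without SCI replicate 1, so that its sign turned. It moved the 8-week value to between -0.91 and -0.27, the latter without SCI replicate 1, and the 16-week value to between -0.47, without control replicate 1, and -0.04, without control replicate 3 or SCI replicate 2. The mean over weeks ran from -0.46 to -0.22, the latter without replicate 1 of the 8-week SCI rats. The 95% interval of that mean, from -0.82 to 0.12, corresponds to 0.567 to 1.09 times the control level. Clock had -0.16 ± 0.13, -0.20 ± 0.13 and 0.03 ± 0.13 at the 3 weeks and -0.11 ± 0.07 for their mean, with edgeR adjusted p = 0.289. The 95% intervals of both means over weeks include 0. Clock was the only member whose groups did not overlap at 8 weeks, where 28.6% of all tested genes did not overlap, and 0 of 6 members did so at 2 and 16 weeks, beside 15.6% and 35.9%. The edgeR adjusted p of Clock at 8 weeks was 0.331.

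For the targets and repressors, the signs of the fold changes at 2, 8 and 16 weeks were mixed or not stable to leaving out 1 library. Dbp had log2 fold changes of 0.21 ± 0.49 (SE), 0.46 ± 0.49 and 0.01 ± 0.49 at 2, 8 and 16 weeks, so each was within 1 SE of 0. The 8-week value ran from 0.19 to 1.24 with single libraries left out, the latter without replicate 3 of the controls, while the ranges of -0.04 to 0.68 at 2 weeks and -0.49 to 0.30 at 16 weeks included both signs. Nr1d1 had -0.70 ± 0.47, 0.15 ± 0.47 and -0.29 ± 0.47, and the 2-week value became -0.26 without replicate 1 of the controls. Per2 had 0.31 ± 0.26, -0.03 ± 0.26 and 0.19 ± 0.26, and Per1 had 0.35 ± 0.37, -0.15 ± 0.37 and 0.18 ± 0.37. The spread between animals set wide limits on what could be seen. The 95% interval of the Nr1d1 change at 2 weeks ran from -1.70 to 0.29, and that of the Dbp change at 8 weeks from -0.58 to 1.501, so neither halving of Nr1d1 nor doubling of Dbp was excluded with 3 rats a group. The interval of the Clock mean, from -0.26 to 0.04 on the log2 scale or 0.833 to 1.03 times the control level, was the narrowest. Without scaling factors, the median of all genes moved up by 0.179 at 8 weeks and 0.111 at 16 weeks, and the 8-week values of Per1 and Per2 became 0.03 and 0.15 and that of Clock -0.01. The Clock mean over weeks was then -0.0013, with an edgeR adjusted p of 0.99.

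**Figure D2:**
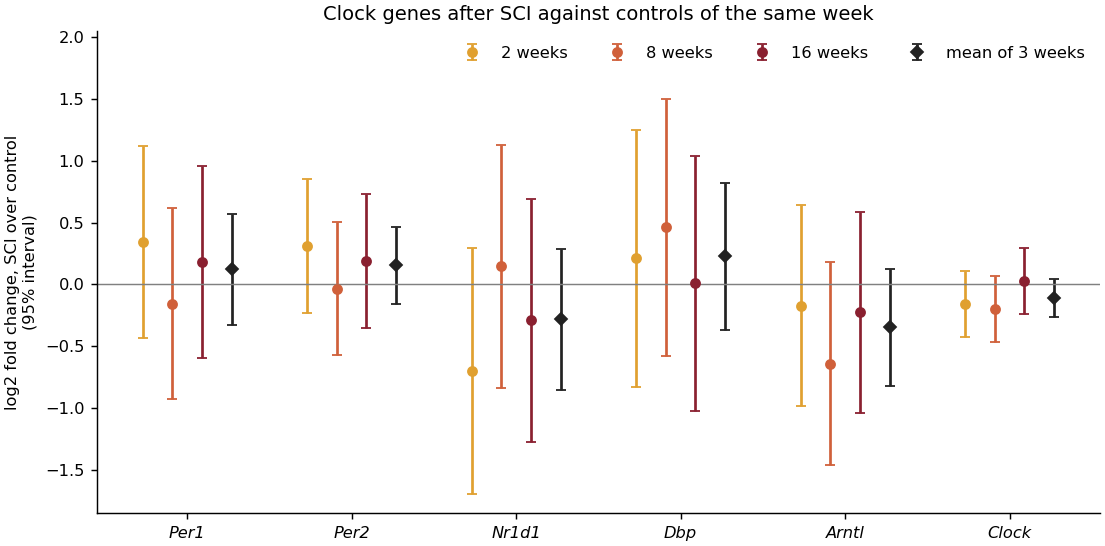
Log2 fold change of SCI over control (y axis) for the 6 clock genes (x axis) at 2, 8 and 16 weeks (circles) and for the mean of the 3 weeks (diamonds), with 95% intervals from edgeR's quasi-likelihood fit. All 24 intervals include 0, and those of Clock are the narrowest.

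Changes of the SCI effect between weeks were tested as interactions, and 0 of 6 clock genes were called in any of the 3, where 0.0197%, 0% and 0% of all tested genes were. The largest was that of Nr1d1 between 2 and 8 weeks, 0.85 ± 0.67 (SE) on the log2 scale, with an edgeR adjusted p of 0.717, and it ran from 0.41 without replicate 1 of the 2-week controls to 1.15 with other single libraries left out. Over time in the controls, 0 of 6 were called between 0 and 2, 2 and 8 or 8 and 16 weeks, beside 0%, 0% and 0.0788% of all genes. Per2 was the member whose groups separated. All 2-week controls lay below all 0-week controls, at a log2 fold change of -0.34 ± 0.26, and all 8-week controls above all 2-week controls, at 0.62 ± 0.26. The edgeR unadjusted p of the second step was 0.0266 and the adjusted p 0.213. Groups that did not overlap were found for 15.7% and 27.1% of all genes in these comparisons, and an unadjusted p under 0.05 in the second for 18.9%. From 8 to 16 weeks, Per2 had -0.47 ± 0.26 and its groups overlapped. With single libraries left out, these steps of Per2 ran from -0.47 to -0.20, 0.48 to 0.75 and -0.65 to -0.30, in order of time. In SCI rats, 0 of 6 were called between 2 and 8 or 8 and 16 weeks, beside 0.0131% and 0% of all genes. Nr1d1 in 8-week SCI libraries lay above all 2-week SCI libraries, at 0.83 ± 0.47 with an edgeR adjusted p of 0.9999. Replicate 3 of the 2-week SCI rats stood apart for Nr1d1, at 30.01 CPM against 91.7 and 90.5, and without it the value was 0.46. Groups that did not overlap were found for 10.4% of all genes between 2 and 8 weeks, and for 6.92% between 8 and 16 weeks, where 0 of 6 members had them. Between 8 and 16 weeks in controls 0 of 6 had them, beside 13.7%. In the test of any difference among the 7 groups, 0 of 6 were called beside 13.6% of all genes. At an unadjusted p under 0.05, 0 of 6 passed in the interactions, beside 8.59%, 7.75% and 6.63% of all genes, and 0 of 6 in controls between 0 and 2 or 8 and 16 weeks, beside 13.4% and 9.5%. In SCI rats over time 0 of 6 passed it, beside 4.49% and 1.81%, and 0 of 6 in the test of any difference, beside 34.4%. DESeq2 called 0 of 6 in these comparisons too, beside 0.184%, 0.0394% and 0.131% of all genes for the interactions, 0.296%, 1.77% and 0.69% for the controls over time, 0.144% and 0.00657% for the SCI rats over time and 28.1% for any difference. The likelihood ratio test called 0 of 6, beside 0.223%, 0.0525% and 0.158%, then 0.282%, 1.27% and 0.65%, then 0.184% and 0.00657%, and 26.7% in the same order.

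The spread among rats of one group was large for most of the clock genes. The SD within groups of log2 CPM was 0.52 for Per1, 0.36 for Per2, 0.66 for Nr1d1, 0.68 for Dbp and 0.55 for Arntl. Clock had 0.16. Genes were then ranked within 1 of 10 classes of like abundance, in which the median SD was 0.135 to 0.148. Nr1d1 stood at the 99.6th percentile of its class, Dbp at the 99.3rd, Arntl at the 99.1st, Per1 at the 99.02nd and Per2 at the 94.5th, whereas Clock stood at the 56.9th. Clock thus stood just above the middle of its class, and the other 5 near the top of theirs. These percentiles describe the libraries and are not a test. Of the variation of each gene over all 21 libraries, the share within groups was 83.2% for Per1, 81.3% for Dbp, 78.5% for Arntl, 67.7% for Per2, 63.6% for Nr1d1 and 63.5% for Clock, beside a median of 54.5% over all tested genes. That median includes genes that differ between groups. Without any group difference, most of the variation would still lie within groups, since 7 group means in 21 libraries leave 14 degrees of freedom.

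**Figure D3:**
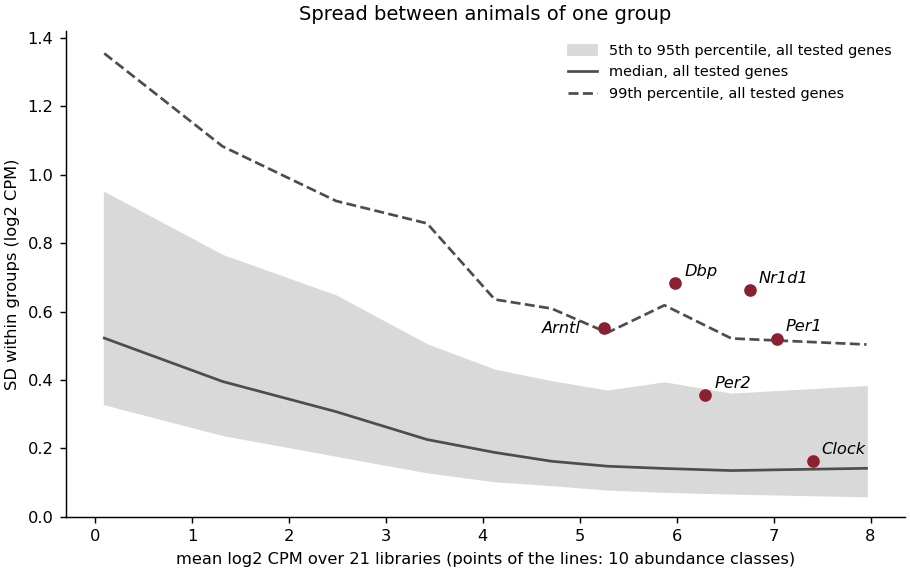
SD within groups of log2 CPM (y axis) against mean log2 CPM (x axis). The line, the band and the dashed line give the median, the 5th to 95th percentile and the 99th percentile in 10 abundance classes of all tested genes, and the labelled points are the clock genes. Dbp and Nr1d1 lie above the dashed line, Per1 and Arntl close to it, and Clock close to the median.

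The next comparison asked whether this spread was shared among the clock genes, by correlation of log2 CPM over the 21 libraries in each of the 15 pairs. Permutation tests were two-sided and p-values were adjusted over the 15 pairs. Dbp and Arntl were opposed, with Pearson's r = -0.73 and Spearman's coefficient = -0.78, with permutation p = 6e-05 for each and adjusted p = 0.00075 and 0.0009. Nr1d1 and Dbp rose and fell together, with r = 0.77 and Spearman's coefficient = 0.72, permutation p = 0.0001 and 0.00026, and adjusted p = 0.00075 and 0.00195. Per2 and Arntl were opposed, with r = -0.64 and Spearman's coefficient = -0.67, permutation p = 0.00082 and 0.00106, and adjusted p = 0.0041 and 0.0053. Per2 and Dbp moved together, with r = 0.63 and Spearman's coefficient = 0.59, permutation p = 0.0026 and 0.00516, and adjusted p = 0.00975 and 0.0194. The other 11 pairs did not pass for r, although Arntl and Clock passed for Spearman's coefficient alone (r = 0.49, Spearman's coefficient = 0.55, permutation p = 0.0503 and 0.0116, adjusted p = 0.151 and 0.0347). Nr1d1 and Arntl, the repressor and its target, had r = -0.24 and Spearman's coefficient = -0.23, with permutation p = 0.295 and 0.312 and adjusted p = 0.516 and 0.52. The 5 pairs with Per1 had r from -0.22 to 0.18.

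Leaving out the 2 libraries farthest from the median of the first gene named changed r to -0.72 for Dbp and Arntl, 0.67 for Nr1d1 and Dbp, -0.63 for Per2 and Arntl, and 0.51 for Per2 and Dbp. The first 3 still passed, with permutation adjusted p from 0.0036 to 0.0136, and Per2 and Dbp did not, with permutation adjusted p = 0.107. That last relation rests in part on replicate 2 of the 2-week controls and replicate 3 of the 2-week SCI rats. With any single library left out, r stayed between -0.75 and -0.70, 0.71 and 0.82, -0.69 and -0.58, and 0.56 and 0.75 in the same order, and each pair passed, with permutation adjusted p of at most 0.0411.

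The relations were then examined within groups, since a pooled value can come from differences between groups. With group means removed and libraries exchanged only within their group, in 279936 arrangements, Per2 and Arntl had r = -0.77 (exact permutation p = 7.14e-06, adjusted p = 0.000107). Nr1d1 and Dbp had r = 0.85 and Per2 and Dbp 0.81, with exact permutation p = 0.000436 and 0.000307 and an adjusted p of 0.00218 for each. Dbp and Arntl had r = -0.77 (exact permutation p = 0.00174, adjusted p = 0.00654). All 4 relations thus held within groups, and a further 2 of the 15 passed there, Arntl and Clock with r = 0.57 and Per2 and Nr1d1 with r = 0.66 (exact permutation p = 0.00537 and 0.00864, adjusted p = 0.0161 and 0.0216). Nr1d1 and Arntl remained at r = -0.39, with an exact permutation p of 0.102 and an adjusted p of 0.19.

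By arm, all 4 pairs passed in the 9 SCI libraries and 1 of the 4 in the 12 controls. Among SCI libraries r was 0.91 for Per2 and Dbp, 0.87 for Nr1d1 and Dbp, -0.76 for Per2 and Arntl and -0.76 for Dbp and Arntl, with exact permutation p = 0.000546, 0.00924, 0.00351 and 0.00155 and adjusted p = 0.00819, 0.0346, 0.0175 and 0.0116. Spearman's coefficient was 0.85, 0.63, -0.83 and -0.93, with adjusted exact permutation p = 0.0248, 0.143, 0.0248 and 0.0112, so that of Nr1d1 and Dbp did not pass. Among controls r was 0.33, 0.82, -0.47 and -0.66 in the same order, with permutation p = 0.299, 0.00118, 0.12 and 0.025 and adjusted p = 0.499, 0.0177, 0.492 and 0.188. Among controls Spearman's coefficient was 0.17, 0.80, -0.52 and -0.52, with adjusted permutation p = 0.746, 0.0399, 0.435 and 0.435. With group means removed, r in the same order was 0.71, 0.78, -0.83 and -0.76 among controls. Among SCI libraries it was then 0.91, 0.92, -0.75 and -0.78. The signs were the same in both arms, and whether the strength differed between arms was not tested. Without the 2 extreme libraries, r of Nr1d1 and Dbp was 0.38 in SCI rats and 0.83 in controls.

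**Figure D4:**
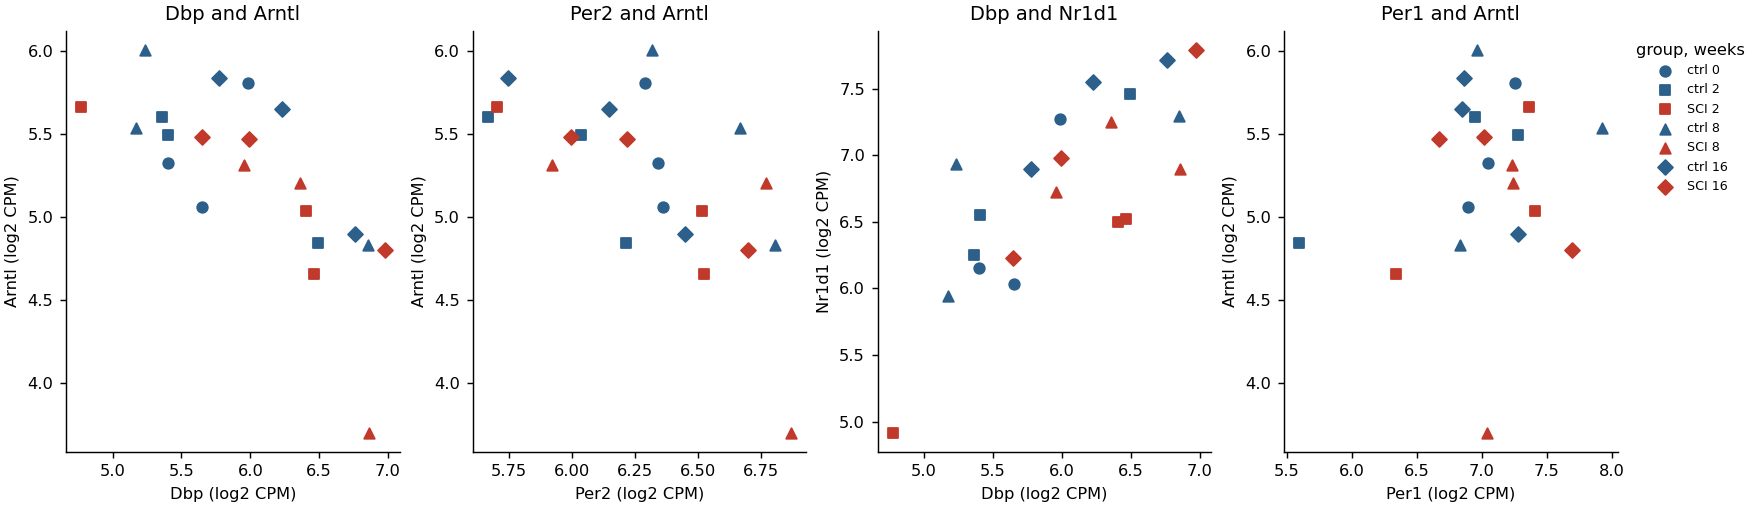
Log2 CPM of pairs of clock genes in the 21 libraries, 1 point per library, with blue for controls, red for SCI and a symbol for each week. From left to right, Dbp and Arntl (r = -0.73), Per2 and Arntl (r = -0.64), Dbp and Nr1d1 (r = 0.77), and Per1 and Arntl (r = 0.18), the last without a visible trend.

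The clock genes were then placed among all other genes by likeness, measured as r of log2 CPM over the 21 libraries with each of the other 15224 tested genes. For Dbp, Nr1d1 ranked 7th from the highest and Per2 32nd, and Arntl ranked 4th from the lowest. For Per2, Dbp ranked 13th from the highest and Arntl 7th from the lowest. For Arntl, Dbp ranked 8th and Per2 34th from the lowest, and Clock ranked 348th from the highest. For Nr1d1, Dbp ranked 14th from the highest, while Arntl ranked 4013th from the lowest. Per1 had no other member near either end. These ranks are descriptions over libraries that differ in sequencing depth and may differ in tissue composition, which was not measured. The other genes are left unnamed because no symbol could be paired with their identifiers.

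Group by group, the same library often carried both extremes. The library with the highest Per2 had the lowest Arntl in 7 of 7 groups, and the library with the highest Dbp had the highest Nr1d1 in 6 of 7 and the highest Per2 in 6 of 7. In 5 of 7 groups a single library was highest in Per2, Nr1d1 and Dbp and lowest in Arntl. These were replicate 1 of the 2-week controls, replicate 3 of the 8-week controls, replicate 1 of the 16-week controls, replicate 1 of the 2-week SCI rats and replicate 2 of the 16-week SCI rats. The highest Per1 fell on the library with the lowest Arntl in 2 of 7 groups. With only 3 libraries a group, extremes of unrelated genes also often share a library. These counts restate the values behind the within-group correlations and are not separate support. Replicate 1 of the 16-week controls was also the most deeply sequenced, and r with log2 total counts over the 21 libraries was 0.40 for Nr1d1, 0.32 for Dbp, -0.23 for Arntl and 0.06 for Per2. With the TMM factor, r was -0.42 for Arntl, -0.34 for Nr1d1, -0.25 for Per2 and 0.04 for Dbp, and with the first principal component of all genes 0.40, 0.48, 0.15 and 0.06. Replicate 1 of the 8-week SCI rats, the lowest in Arntl, had the highest TMM factor, 1.09, and the lowest share of counts in the 10 most abundant genes, 6.31%. The part of depth and library composition in these relations was not tested.

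The difference between log2 CPM of Dbp and of Arntl was used to place each library along this axis. It was lowest in replicate 3 of the 2-week SCI rats, at -0.89, and highest in replicate 1 of the 8-week SCI rats, at 3.16. By group, controls had a lowest and a highest difference of 0.08 and 0.59 at 0 weeks, -0.23 and 1.65 at 2 weeks, -0.77 and 2.03 at 8 weeks, and -0.06 and 1.87 at 16 weeks. Those of SCI rats were -0.89 and 1.81 at 2 weeks, 0.64 and 3.16 at 8 weeks, and 0.17 and 2.17 at 16 weeks. The span within a group was thus 1.89 to 2.79 in 6 groups and 0.51 in the 0-week controls. Of the 21 pairs of groups, 20 overlapped and 1 did not, the 0-week controls and the 8-week SCI rats, and in each of the 3 weeks SCI and control rats overlapped. Whether rats were collected at different times of day was not tested, since no library carries a time of collection, and a difference in phase between groups cannot be told apart from other differences between rats.

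**Figure D5:**
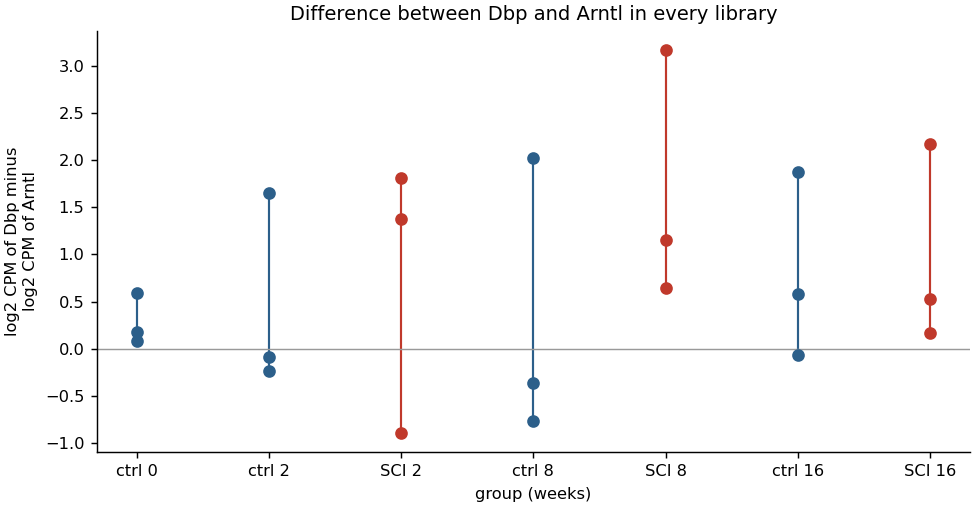
Log2 CPM of Dbp minus log2 CPM of Arntl (y axis) in each library by group (x axis, weeks), with a line from the lowest to the highest of 3 libraries. SCI and control groups of the same week overlap, and libraries of one group lie up to 2.79 apart.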

How the data were processed

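The authors prepared stranded, ribosome-depleted libraries, sequenced them as paired-end reads and summed both flow cells; the deposited table holds whole-number counts for each Ensembl gene, not normalized. The submitters' processing notes name Trim Galore 0.6.10, STAR 2.7.10a, featureCounts 2.0.3 and build Rnor_6.0; annotation release and strand setting are not given in the sources used here. With edgeR 4.0.16 (R 4.3.3), filterByExpr kept 15225 of 32754 genes, TMM factors ran from 0.903 to 1.09, and 1 quasi-likelihood model with 7 group means and no covariate was fitted to all 21 libraries (14 residual degrees of freedom). P-values were Benjamini-Hochberg adjusted over all genes in each of 13 comparisons, with a threshold of 0.05. Log2 CPM used a prior count of 2. Correlations used 100000 permutations, or exact ones for the 9 SCI libraries and within groups (scipy 1.17.1). DESeq2 1.42.0 was an alternative. Scripts were tested on simulated data. The named genes were the 6 given by identifier. The members and lists were chosen with earlier results of these data known. Lists of other clock genes, of glucocorticoid and cyclic AMP response genes and of cell type markers were not run, because no table matched their symbols to the identifiers. Pairs of libraries within a group differed beyond sampling noise (chi-square per degree of freedom 7.22 to 59.9).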

Additional observations from a re-analysis of the deposited data

How the results depend on the processing

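The count of clock genes called stayed at 0 in 399 of 400 recomputations, over DESeq2, the likelihood ratio test, RLE factors, library size only, 2 other filters on low counts, fits to fewer groups, the replicate block and each library left out. The exception was an unadjusted p in controls between 2 and 8 weeks, which gave 1, Per2, beside 18.9% of all genes. Over the same alternatives with adjusted p, the share of all genes called ran from 0% to 0.453%, 0.207% to 20.3% and 0.103% to 14.6% for SCI at 2, 8 and 16 weeks, and from 12.5% to 32.3% for their mean. From 0%, it reached 0.223%, 0.0525% and 0.158% for the interactions of 8 with 2, 16 with 2 and 16 with 8 weeks. In controls it reached 0.529%, 3.15% and 0.834% over the 3 time steps, and in SCI rats 0.184% and 0.00657%. For any difference among the 7 groups it ran from 7.34% to 28.1%. With library size only, the log2 fold changes of SCI at 8 weeks reversed to 0.0307 for Per1 and 0.15 for Per2, a shift that the median of all genes shared. With each library left out in turn, signs turned for Per1 (-0.00964 to 0.69), Dbp (-0.0431 to 0.68) and Arntl (-0.50 to 0.0347) at 2 weeks, for Per1 (-0.35 to 0.28), Per2 (-0.20 to 0.21) and Nr1d1 (-0.15 to 0.45) at 8 weeks, and for Per1 (-0.16 to 0.38), Per2 (-0.0412 to 0.37), Nr1d1 (-0.79 to 0.00931), Dbp (-0.49 to 0.30) and Clock (-0.0333 to 0.11) at 16 weeks. Without a change of sign, the ranges were -0.93 to -0.26 for Nr1d1, 0.17 to 0.53 for Per2 and -0.24 to -0.08 for Clock at 2 weeks, and 0.19 to 1.24 for Dbp, -0.91 to -0.27 for Arntl and -0.26 to -0.13 for Clock at 8 weeks, and -0.47 to -0.04 for Arntl at 16 weeks. The lowest edgeR adjusted p of any SCI comparison by week was 0.145, for Dbp at 8 weeks without replicate 3 of the controls. The count of correlated pairs was 1 in the 12 controls alone, 6 with group means removed and 3 to 5 otherwise. The cause of these changes was not tested. Deviations from group means in libraries that share a replicate number correlated at r from -0.24 to 0.38 (median 0.02, 16 of 63 pairs over 0.1). For libraries of different groups with other numbers, r ran from -0.39 to 0.27 (median -0.02). The replicate block called 0 clock genes in every comparison.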
